A study of Homo sapiens with 6 samples.

Results

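The genes described here are 40 ribosome biogenesis factors, the nucleolar proteins and enzymes that make, cut, modify and assemble the RNA and protein of new ribosomes. They were taken by name from the deposited table of 58219 genes. All 40 were found under their symbols, all passed the filter on low values, and none had fewer than 319 reads in any library. RNA was measured in IMR90 cells, a line of normal diploid human lung fibroblasts, that express ER-RASG12V. This construct is an oncogenic RAS fused to oestrogen receptor sequence, and 4-hydroxytamoxifen (4OHT) switches it on. The cells had received 100 nM 4OHT for 72 h (3 libraries, which the labels call committed to senescence) or for 30 h (3 libraries, called uncommitted). Both groups carry the construct and both received 4OHT, so no library shows cells before induction. The labels do not say which RAS gene the construct holds, whether the cells are 1 clone, or whether replicates A, B and C came from separate cultures. The p-values therefore reflect only how far these libraries scatter, which could be technical scatter.

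Ribosome production starts in the nucleolus, where RNA polymerase I copies the ribosomal DNA into one long precursor RNA. Small nucleolar RNAs (snoRNAs), carried in protein complexes called snoRNPs, guide chemical modification of that RNA. Large assemblies then cut it and fold it with ribosomal proteins into the small and the large subunit. In dividing fibroblasts these genes serve growth, MYC is known to raise many of them, and the nucleolus is also where several p53 regulators are held.

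Libraries held 13221152 to 15703544 reads assigned to genes. Reads of mitochondrial genes made up 4.23% to 4.83% at 72 h and 3.56% to 4.06% at 30 h. The times lay apart on the first principal component (81.3% of the variance), and the second (7.0%) set both letter C libraries apart. All 7 fibroblast markers had reads in every library, but their summed level was 2478 to 2979 TPM at 72 h and 7622 to 8174 TPM at 30 h (TPM, reads corrected for exon length and for the sum over all genes of a library). Epithelial markers summed to 43.9 to 50.4 TPM at 72 h and 58.5 to 63.8 TPM at 30 h, nearly all of it KRT18, with KRT5 and SFTPC at 0 reads. Endothelial markers reached at most 1.26 TPM and blood markers at most 0.689 TPM in any library, and CDH5 and CD3E had 0 reads. The proliferation marker MKI67 averaged 2156 ± 657 normalised counts at 72 h and 5669 ± 570.1 at 30 h (SD, n = 3 each), and it fell by 1.44 on the log2 scale (limma adjusted p = 0.00658). What these shifts contribute to the values below was not tested. In bulk RNA, fewer cells with a transcript and less of it per cell cannot be told apart. Values are relative to the other transcripts of a library, so a change in total RNA per cell would not be seen.

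Most of the 40 factors held close to the same level at 72 h as at 30 h. By limma with Benjamini-Hochberg adjustment over 13315 tested genes (adjusted p below 0.05), 10 rose at 72 h, 5 fell and 25 did not pass. Among all tested genes 23.6% rose and 25% fell, 48.6% in all. In this fit the share of biogenesis factors that rose was near the background and the share that fell was below it. The share that rose moved with single libraries, as given below. Changes were small, and no factor reached 1.5-fold, whereas 25.5% of tested genes changed by at least that much in either direction. With an adjusted p below 0.05 as well, 10.2% of tested genes rose and 12.9% fell. These shares were not matched for level. The median log2 fold change was 0.06 over the 40 factors (quartiles -0.08 and 0.20) and 0.01 over all tested genes (quartiles -0.30 and 0.27). Its size without sign had a median of 0.17 in the 40 factors, 0.28 in all tested genes and 0.22 in the 5690 tested protein-coding genes within their range of levels.

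A p that misses the threshold does not show that a gene stayed the same, so the intervals were also read. For each of the 25 factors that did not pass, the 95% interval of the fold change lay inside 1.5-fold either way, between -0.56 and 0.43 on the log2 scale. Over all 40 this held for 37, and all 40 intervals lay inside 2-fold. Of all tested genes 51.1% had an interval inside 1.5-fold. That share was not matched for level. A tested gene needed only 10 normalised counts in 3 libraries, whereas each of the 40 had at least 319 reads in every library. The 3 libraries of 72 h lay wholly above the 3 of 30 h for 9 factors (29.3% of tested genes) and wholly below for 4 (29.9% of tested genes). The count of rises was 6 without 72 h replicate B, against 2703 of all 13315 tested genes. Without 72 h replicate C it was 14, against 2877 of the 13315. That of falls was 2 without 30 h replicate A or B (2744 and 2689 of all tested genes). It was 3 without 72 h replicate A or C (2829 and 3156 of all tested genes). Where the share of rises stood beside the background thus depended on single libraries.

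**Figure D1:**
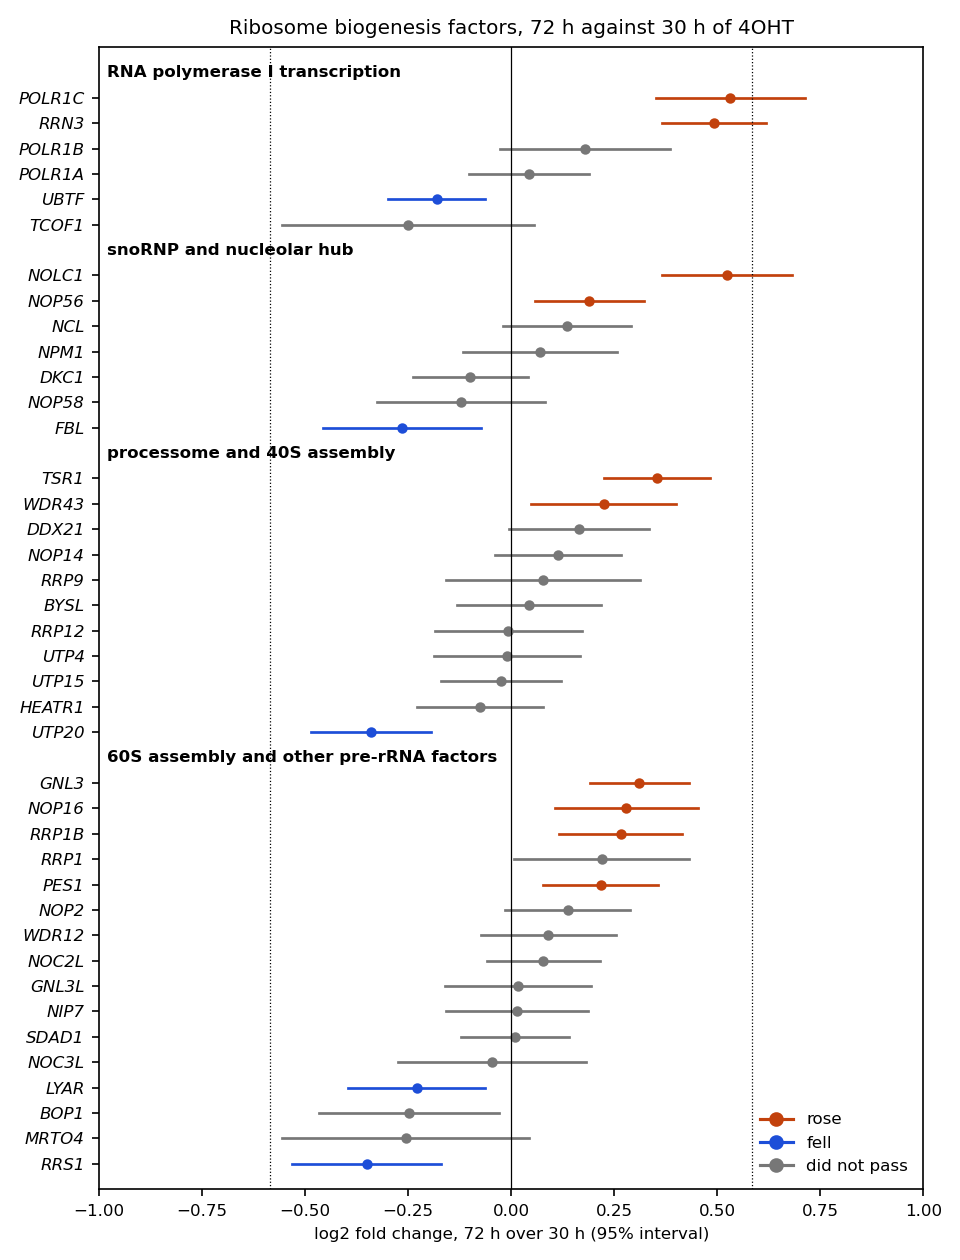
Log2 fold change of each of the 40 factors, 72 h over 30 h, with its 95% interval, grouped by role; dotted lines mark 1.5-fold. The 10 factors that rose and the 5 that fell lie between 0.53 and -0.35, and the other 25 intervals all stay inside the dotted lines.

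Of the 15 factors that rose or fell, 8 kept that call and direction in all 19 other settings of scaling, filter, test and left-out libraries. Of the 25 that did not pass, 5 (HEATR1, NOC2L, NOP58, NPM1 and POLR1B) kept both their sign and their side of the threshold in all 19. None of the 8 would pass a 1.5-fold minimum. The 8 were RRN3, NOLC1, POLR1C, TSR1, GNL3 and RRP1B among the rises, and RRS1 and UTP20 among the falls. Their normalised counts, which are reads divided by a size factor of the library, are plotted by library and given with their roles below.

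**Figure D2:**
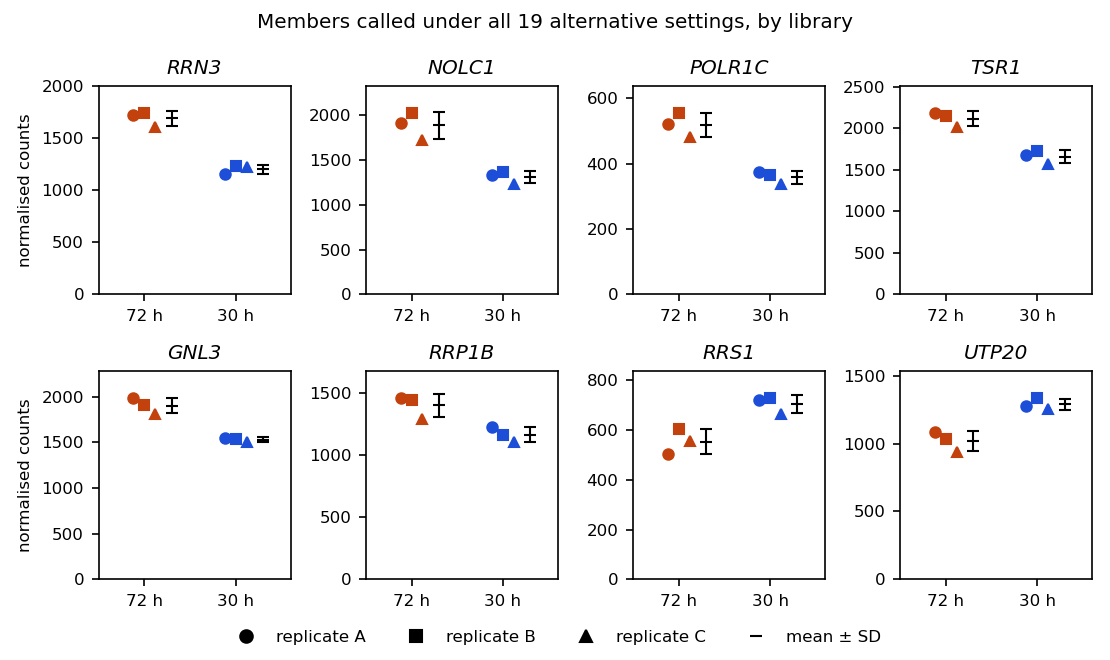
Normalised counts of the 8 factors in each library, 72 h left of 30 h, with replicate letters as symbols and mean ± SD (n = 3) beside them; every axis starts at 0. In each of the 8 panels the 3 points of 72 h lie on one side of the 3 points of 30 h.

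The promoters of 5 of the 8 are shown, GNL3, RRN3, POLR1C and TSR1, which rose, and UTP20, which fell, to let the letters of rises and a fall be read side by side. Windows of 300 bases, 250 before and 50 after the transcription start, came from RefSeq (GRCh38.p14), and 33 of the 40 factors had one or, in 7 cases, several. A gene was counted as holding a motif if any of its windows held it, and for GNL3 and RRN3, with 2 windows each, 1 is printed. Capitals mark the motifs found, CCGGAAG or its reverse complement CTTCCGG (the core of ETS-family sites) and CACGTG (the E-box bound by MYC with MAX, the same on both strands).
GNL3, chr3:52685782-52686081, plus strand: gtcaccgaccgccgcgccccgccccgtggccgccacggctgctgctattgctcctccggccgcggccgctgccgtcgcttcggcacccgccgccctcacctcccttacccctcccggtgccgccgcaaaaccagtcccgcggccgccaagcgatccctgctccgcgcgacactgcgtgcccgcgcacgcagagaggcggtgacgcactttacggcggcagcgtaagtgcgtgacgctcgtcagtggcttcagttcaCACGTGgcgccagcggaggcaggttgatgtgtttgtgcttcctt
RRN3, chr16:15094286-15094585, minus strand: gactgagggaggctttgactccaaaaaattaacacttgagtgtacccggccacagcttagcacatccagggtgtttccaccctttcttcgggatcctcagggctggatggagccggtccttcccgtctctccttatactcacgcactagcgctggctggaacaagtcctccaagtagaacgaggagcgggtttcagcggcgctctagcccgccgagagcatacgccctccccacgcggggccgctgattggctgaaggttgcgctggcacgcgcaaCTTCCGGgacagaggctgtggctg
POLR1C, chr6:43516839-43517138, plus strand: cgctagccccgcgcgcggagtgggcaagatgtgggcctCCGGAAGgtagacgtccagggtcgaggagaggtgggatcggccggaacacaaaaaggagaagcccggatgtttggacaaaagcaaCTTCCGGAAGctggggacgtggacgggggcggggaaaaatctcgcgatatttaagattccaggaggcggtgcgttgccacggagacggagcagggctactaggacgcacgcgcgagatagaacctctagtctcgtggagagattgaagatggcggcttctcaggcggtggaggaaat
TSR1, chr17:2336408-2336707, minus strand: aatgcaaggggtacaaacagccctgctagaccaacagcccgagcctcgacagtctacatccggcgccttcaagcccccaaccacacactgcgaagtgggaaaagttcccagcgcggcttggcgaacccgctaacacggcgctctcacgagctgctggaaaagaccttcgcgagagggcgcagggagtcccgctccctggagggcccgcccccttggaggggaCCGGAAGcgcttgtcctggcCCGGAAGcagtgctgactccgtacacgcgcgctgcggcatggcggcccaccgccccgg
UTP20, chr12:101279855-101280154, plus strand: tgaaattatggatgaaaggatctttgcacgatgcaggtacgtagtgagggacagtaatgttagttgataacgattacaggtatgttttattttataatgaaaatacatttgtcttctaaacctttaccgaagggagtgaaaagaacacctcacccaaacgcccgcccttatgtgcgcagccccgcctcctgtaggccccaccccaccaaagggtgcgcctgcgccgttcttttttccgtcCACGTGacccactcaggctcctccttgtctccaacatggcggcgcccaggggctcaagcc
GNL3, a rise, holds an E-box that begins at position 6 when the start is counted as 0, and no ETS core; its other window holds neither motif. RRN3 holds 1 ETS core, at 26 in the window printed and at -37 in the other. POLR1C holds cores at -212, -127 and -124, and the last pair overlap in one palindrome. In TSR1 the cores lie at -28 and -8. UTP20, the fall, holds no ETS core and has its E-box at -10. The E-box was thus in a gene that rose and in the one that fell.

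Searched in the same windows, an E-box was present in 15 of the 33 factors (45.5%), against 12.6% of 9670 tested genes with a window and 8.77% of all 27305 genes with one. Windows of the factors and of tested genes had a similar base composition, with a median GC content of 65.7% and 65.0%. Of the 15 E-boxes, 13 began within 50 bases of the start (86.7%), against 36.9% of the 2821 E-boxes in all windows. The ETS core was in 13 factors (39.4%), against 22.9% of tested genes. Either motif was found in 23 factors and both in 5. The E2F site searched, TTTCCCGC or GCGGGAAA, was in 1 factor, PES1 (3.03%), against 3.29% of tested genes. Both motifs occurred beside every kind of call. E-boxes were in 3 of 8 factors that rose, 3 of 4 that fell and 9 of 21 that did not pass, and ETS cores in 4, 1 and 8 of them. A match describes the letters only and says nothing of binding.

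The 6 factors of RNA polymerase I transcription gave 2 rises, 1 fall and 3 genes that did not pass. Over the roles described here the share that rose ran from 18.2% to 33.3%, and the share that fell from 9.09% to 16.7%. Among all tested genes these shares were 23.6% and 25%. POLR1C (chr6:43509702-43529585, plus strand), a subunit shared by RNA polymerases I and III, had 522, 555 and 481 normalised counts in the 72 h libraries A, B and C, against 373, 367 and 336 in the 30 h libraries A, B and C. Its lowest 72 h value stood above its highest 30 h value, and the mean was 519 ± 36.6 at 72 h and 359 ± 19.7 at 30 h (SD, n = 3 each). The rise was 1.45-fold (log2 0.53 ± 0.081 SE, limma adjusted p = 0.000519). RRN3 (chr16:15060022-15094317, minus strand), the initiation factor that joins the polymerase to the ribosomal DNA promoter, had 1724, 1743 and 1612 normalised counts at 72 h, against 1155, 1232 and 1224 at 30 h. Again the times did not overlap, and RRN3 rose 1.41-fold (log2 0.49 ± 0.057 SE, limma adjusted p = 9.7e-05). Reads of RRN3 and its pseudogenes may be exchanged, and the 3 named copies together held 4.68% as many reads as RRN3 itself.

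UBTF, the architectural protein that coats active ribosomal DNA, had 878, 901 and 900.0 normalised counts at 72 h and 1014, 1004 and 1019 at 30 h. These were the tightest replicates of the 40 at both times, and UBTF fell to 893 ± 13.0 at 72 h, against 1012 ± 7.63 at 30 h (log2 -0.18 ± 0.053 SE, limma adjusted p = 0.0175). UBTF missed the threshold when 72 h replicate A or 30 h replicate A or B was left out (adjusted p 0.0507 to 0.0624). POLR1A, the largest subunit of the polymerase, averaged 1716 ± 113 at 72 h and 1664 ± 88.2 at 30 h. POLR1B, the other catalytic subunit, averaged 695 ± 46.1 at 72 h and 615.6 ± 70.4 at 30 h. Neither passed (adjusted p = 0.621 and 0.135 by limma), and the estimates were 0.04 for POLR1A and 0.18 for POLR1B. TCOF1, treacle, a partner of UBTF, had 803, 1057 and 764 at 72 h and 1103, 1079.9 and 916 at 30 h. With overlapping times its log2 fold change was -0.25 (adjusted p = 0.154), but without 72 h replicate B, the highest of its time, it passed at -0.39 (adjusted p = 0.00793).

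Among the 7 snoRNP and nucleolar hub proteins, 2 rose, 1 fell and 4 did not pass. NOLC1 (chr10:102152176-102163871, plus strand), a chaperone of snoRNPs in the nucleolus and Cajal bodies, had 1919, 2026 and 1725 normalised counts at 72 h, against 1335, 1367 and 1237 at 30 h. All 72 h libraries were above all 30 h libraries, and the rise was 1.44-fold (log2 0.52 ± 0.070 SE, limma adjusted p = 0.000244). The box C/D snoRNP core, which carries out ribose methylation, split. NOP56, a scaffold of this core, rose to 2526 ± 49.3 at 72 h, against 2218 ± 143 at 30 h (log2 0.19, adjusted p = 0.0234), but missed the threshold without 72 h replicate A, 72 h replicate B or 30 h replicate C (adjusted p 0.0575 to 0.0731). FBL, the methyltransferase itself, had 1047, 1179.7 and 942 at 72 h and 1317, 1309 and 1173 at 30 h. One 72 h value lay above the lowest 30 h value, and FBL fell by 0.27 on the log2 scale (adjusted p = 0.0277). That call did not hold without 72 h replicate A or C or 30 h replicate A or B (adjusted p 0.0738 to 0.0966). NOP58, the partner of NOP56, averaged 1419.9 ± 157 at 72 h and 1542 ± 126 at 30 h and did not pass (log2 -0.12, adjusted p = 0.299).

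NPM1 and NCL, the abundant chaperones of the nucleolus, had the highest levels per length of all 40. NPM1 had 8656, 9166 and 7459 normalised counts at 72 h, against 8237, 8436 and 7371 at 30 h, with the times overlapping (log2 0.07, adjusted p = 0.526). NCL had 13037, 13136 and 11337 at 72 h, against 11821, 11465 and 10806 at 30 h (log2 0.14, adjusted p = 0.136). In NCL the letter C library was the lowest of its time in both groups, and without 72 h replicate C the gene passed at 0.20 (adjusted p = 0.0177). DKC1, the pseudouridine synthase of box H/ACA snoRNPs, averaged 1268 ± 29.5 at 72 h and 1360.2 ± 91.9 at 30 h (log2 -0.10, adjusted p = 0.215), and it passed without 30 h replicate C at -0.16 (adjusted p = 0.0479).

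The 11 factors of the small subunit processome and of later small subunit assembly gave 2 rises, 1 fall and 8 genes that did not pass. TSR1 (chr17:2322503-2337507, minus strand), a late assembly factor that resembles a GTPase, had 2179.7, 2148 and 2017 normalised counts at 72 h, against 1678, 1720.0 and 1568 at 30 h. The times were apart, and TSR1 rose 1.28-fold (log2 0.35 ± 0.058 SE, limma adjusted p = 0.000797). UTP20 (chr12:101280109-101386616, plus strand), a long scaffold protein of the processome, had 1083, 1036 and 939.8 at 72 h, against 1278, 1334 and 1256 at 30 h. Here every 72 h library was below every 30 h library, and UTP20 fell 1.27-fold (log2 -0.34 ± 0.065 SE, adjusted p = 0.00199). WDR43, a processome protein also known to assist nucleolar transcription, had 1862, 1969.7 and 1712 at 72 h and 1593, 1728 and 1430.0 at 30 h. Its times overlapped by 1 library, and the rise of 0.22 (adjusted p = 0.0390) was lost without 72 h replicate A or B or 30 h replicate A or C (adjusted p 0.0862 to 0.133).

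DDX21, an RNA helicase that links polymerase I activity to processing, had 6607, 6616 and 5578 normalised counts at 72 h, against 5739.7, 5785 and 5219 at 30 h. Only its letter C library of 72 h lay within the range of 30 h, the log2 fold change was 0.16 (adjusted p = 0.102), and DDX21 passed without that library at 0.25 (adjusted p = 0.00840). NOP14, a processome protein, had a log2 fold change of 0.11 (adjusted p = 0.200) over all libraries and 0.18 (adjusted p = 0.0415) without 72 h replicate C. The remaining 6 had estimates within 0.1 of 0. HEATR1, UTP4 and UTP15 belong to the part of the processome that binds the precursor first. HEATR1 averaged 1217 ± 67.5 normalised counts at 72 h and 1284 ± 88.4 at 30 h, UTP4 1270.4 ± 110.5 at 72 h and 1279.5 ± 96.6 at 30 h, and UTP15 516 ± 17.8 at 72 h and 525 ± 10.9 at 30 h. RRP12, which helps export the small subunit, averaged 898 ± 77.7 at 72 h and 902 ± 67.7 at 30 h. RRP9, a protein of the U3 snoRNP, averaged 477 ± 49.4 at 72 h and 453 ± 55.9 at 30 h, and BYSL, bystin, 589.9 ± 32.0 at 72 h and 573 ± 45.5 at 30 h. Values of the times overlapped in all 6. The highest of their log2 fold changes was 0.08 and the lowest -0.08, and each of the 6 intervals held 0.

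Large subunit assembly and other precursor RNA factors, 16 genes, gave 4 rises, 2 falls and 10 that did not pass. GNL3 (chr3:52681156-52694492, plus strand), the nucleolar GTPase nucleostemin, had 1983, 1905 and 1815 normalised counts at 72 h, against 1553, 1536 and 1505 at 30 h. The gap between the times was wider than the spread within either, and GNL3 rose 1.24-fold (log2 0.31 ± 0.054 SE, limma adjusted p = 0.00109). Its paralogue GNL3L had 422, 475 and 481 at 72 h, against 479.6, 449 and 433 at 30 h, with times that overlapped and an estimate of 0.02 (adjusted p = 0.886). In the other paralogous pair, RRP1B and RRP1, 1 member passed. RRP1B (chr21:43659548-43696079, plus strand) had 1461, 1450.0 and 1296 at 72 h, against 1228, 1164 and 1106 at 30 h, and rose 1.20-fold (log2 0.27 ± 0.067 SE, adjusted p = 0.00859). RRP1 had 576, 660.1 and 557 at 72 h, against 567, 513 and 461 at 30 h. Its estimate of 0.22 was near that of RRP1B but had a wider error (0.095 SE, adjusted p = 0.0811), and RRP1 passed without 30 h replicate A (adjusted p = 0.0442). Whether the paralogues of either pair differ from each other was not tested.

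PES1, BOP1 and WDR12 form one complex needed for the large subunit RNA. PES1 had 1701, 1718 and 1565 normalised counts at 72 h, against 1495, 1447 and 1346 at 30 h, and rose by 0.22 (adjusted p = 0.0159), but missed the threshold when 72 h replicate A or B was left out (adjusted p = 0.0652 and 0.0583). BOP1 had 849, 1007 and 839 at 72 h, against 1150.3, 1115 and 938 at 30 h. Its log2 fold change of -0.25 missed the threshold over all libraries (adjusted p = 0.0592) and passed without 72 h replicate B (adjusted p = 0.0190) or 30 h replicate C (0.00732). WDR12 averaged 996 ± 65.9 at 72 h and 935 ± 64.2 at 30 h (log2 0.09, adjusted p = 0.339). So the complex had 1 subunit that rose, while the point estimate of another lay on the other side of 0 without passing.

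RRS1 (chr8:66429028-66430733, plus strand), whose yeast counterpart brings a small ribosomal RNA into the large subunit, had the largest fall of the 40. It had 501, 602 and 554 normalised counts at 72 h, against 720.4, 726 and 662 at 30 h. The times did not overlap, and RRS1 fell 1.28-fold (log2 -0.35 ± 0.081 SE, adjusted p = 0.00534). LYAR, a zinc finger protein of the nucleolus, had 662, 657 and 569.6 at 72 h and 717, 727 and 765 at 30 h, a fall of 0.23 on the log2 scale (adjusted p = 0.0281). Although its times did not overlap, that call was lost without 72 h replicate C or any 30 h library (adjusted p 0.0558 to 0.0806). NOP16, a large subunit assembly factor, had 572, 609 and 555 at 72 h, against 483, 511 and 439 at 30 h. It rose 1.21-fold (log2 0.28, adjusted p = 0.0140) and just missed the threshold without 72 h replicate B (adjusted p = 0.0539). MRTO4, a relative of the ribosomal stalk protein, had 1037, 1198 and 921 at 72 h and 1372, 1348 and 1055 at 30 h. It did not pass (log2 -0.26, adjusted p = 0.139), but did without 30 h replicate C at -0.38 (adjusted p = 0.0140).

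The last 5 of this role did not pass. NOP2, which methylates a cytosine of the large subunit RNA, averaged 1041 ± 82.1 at 72 h and 945 ± 24.3 at 30 h (log2 0.14, adjusted p = 0.122) and passed without 72 h replicate C at 0.19 (adjusted p = 0.0368). NOC2L averaged 2135 ± 156 at 72 h and 2019 ± 34.1 at 30 h, and NOC3L, which with it belongs to the early large subunit particles in yeast, 496 ± 23.8 at 72 h and 515 ± 71.4 at 30 h. SDAD1 averaged 1059.95 ± 24.5 at 72 h and 1054 ± 53.1 at 30 h, and NIP7 976 ± 45.0 at 72 h and 969 ± 90.6 at 30 h. For those 4 the log2 fold changes ran from -0.05 to 0.08, each with a 95% interval that held 0.

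On the TPM scale, which allows levels to be set between genes, the factors spanned 20.8 to 598 TPM at 72 h and 18.9 to 611 TPM at 30 h. NPM1 was at the top with 598 ± 68.2 TPM at 72 h and 611 ± 42.5 at 30 h, followed by NCL with 490.1 ± 43.4 at 72 h and 479 ± 23.9 at 30 h. DDX21 came next with 339 ± 34.7 TPM at 72 h and 324 ± 18.3 at 30 h. These 3 stood apart from the rest, since the next highest at 72 h, GNL3, had 156 ± 7.28 TPM at 72 h and 135 ± 2.93 at 30 h. RRN3 led the polymerase I factors with 111 ± 5.63 TPM at 72 h and 84.5 ± 2.24 at 30 h, while TCOF1 at 72 h (20.8 ± 4.07) and POLR1C at 30 h (18.9 ± 1.09) were the lowest of all. The TPM scale itself sat 6.97% lower at 72 h relative to normalised counts, so changes between times are given only in normalised counts.

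**Figure D3:**
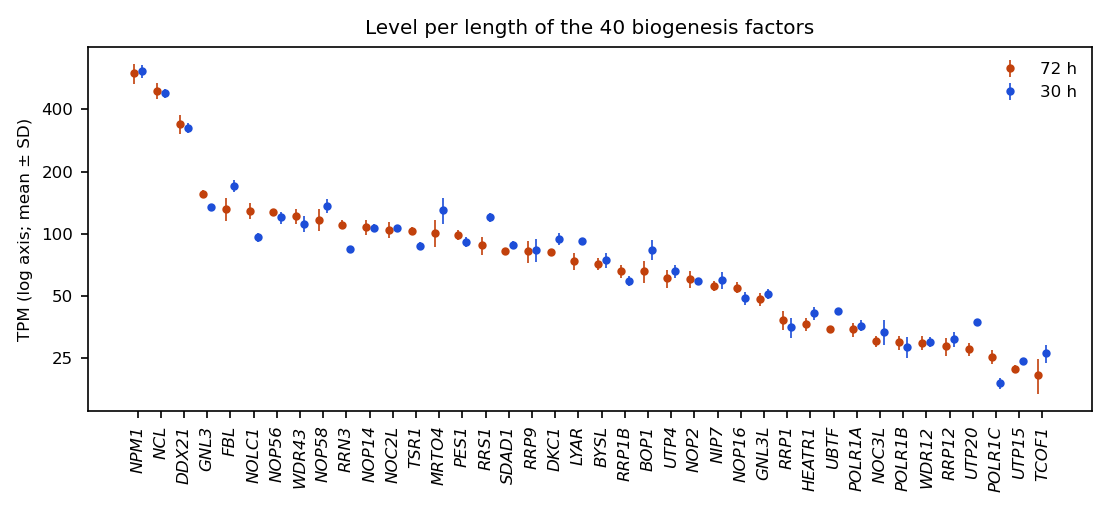
Mean TPM ± SD (n = 3) of the 40 factors on a log axis, ordered by the level at 72 h, with 72 h left of 30 h for each gene. NPM1, NCL and DDX21 stand above the other 37 at both times.

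Part of the spread between replicates was shared by most factors. In each group the letter C library was the lowest of its 3 for 34 of 40 factors, and 72 h replicate B was the highest of its group for 32. The median deviation from a gene's mean over the 6 libraries was 0.03, 0.12 and -0.07 on the log2 scale in the 72 h libraries A, B and C, against 0.03, -0.01 and -0.13 in the 30 h libraries A, B and C. Together the 40 genes took 0.513%, 0.538% and 0.461% of all reads at 72 h, against 0.489%, 0.484% and 0.439% at 30 h. The 72 h C library therefore lay below the 30 h A and B libraries on this measure, and the times overlapped. Without both letter C libraries 14 of the 40 factors rose and 6 fell. Of all 13315 tested genes 3462 rose and 3619 fell in that setting, so the share of factors that rose was then above the background. The coefficient of variation between replicates had a median of 7.08% at 72 h and 6.01% at 30 h.

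**Figure D4:**
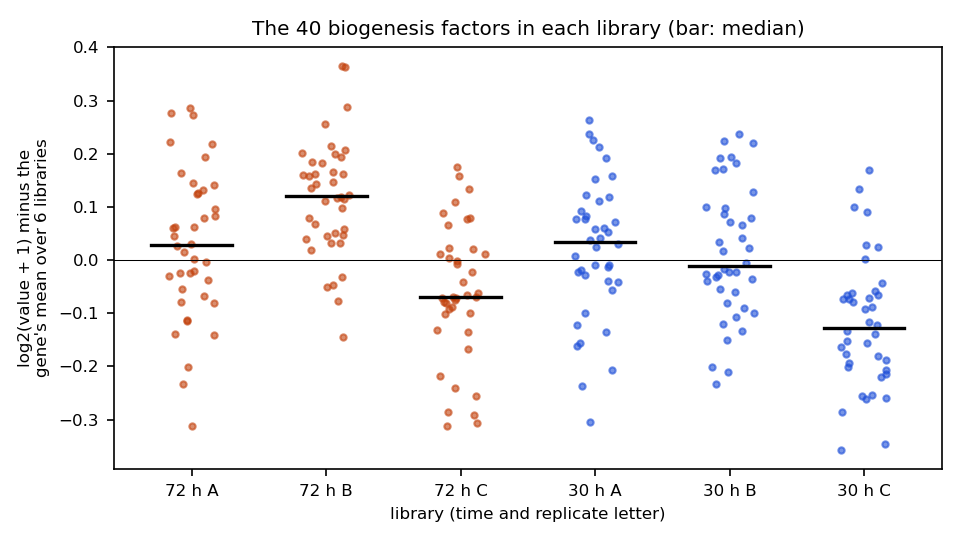
Each point is 1 of the 40 factors in 1 library, as log2(value + 1) minus that gene's mean over the 6 libraries; bars are medians, and 72 h libraries stand left of 30 h libraries. The medians run from 0.12 in 72 h replicate B to -0.13 in 30 h replicate C, and both C libraries are the lowest of their time.

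Several factors carry snoRNAs within their gene bounds. By the GENCODE 29 annotation, 8 of the 40 host 26 entries for small nucleolar or Cajal body RNAs on the same strand. Some of these RNAs have several entries, and some overlap annotated exons of their host. Of these 8 hosts 5 rose (POLR1C, TSR1, GNL3, WDR43 and NOP56), 0 fell and 3 did not pass (NCL, NOP58 and DKC1), with a median log2 fold change of 0.21. Among all tested genes 23.6% rose and 25% fell. No host fell at an unadjusted p below 0.05 or by edgeR or DESeq2 either (0 in each). Rises among the hosts numbered 5 by edgeR, 4 by DESeq2 on whole reads and 3 by the authors' own DESeq2. Of the 32 other factors 5 rose, 5 fell and 22 did not pass, with a median of 0.03. The split was made after the calls were known and has no test.

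Exons of some factors overlap those of other genes, and the strand setting of the counting is not stated. Opposite-strand partners together covered at least 10% of the exon length in HEATR1 (23.2%), TSR1 (20.9%), NIP7 (20.2%), NOP16 (20.0%), POLR1C (18.2%) and NOP14 (17.1%), so part of their reads is uncertain. SRR, the main partner of TSR1, moved the other way with a log2 fold change of -0.55. The partners of NOP16, ARL10 (0.28) and HIGD2A (0.37), and XPO5 (0.35) beside POLR1C rose as those factors did. LGALS8 (0.39), opposite HEATR1, and NOP14-AS1 (0.33), opposite NOP14, also rose, although HEATR1 and NOP14 did not pass. LGALS8 averaged 1747 ± 90.9 normalised counts at 72 h and 1336 ± 156 at 30 h. COG8 (0.21), opposite NIP7, did not pass. How far reads of these partners entered the values of the factors was not tested. On the same strand, NOP2 shares 54.4% and RRS1 11.4% of its exon length with a gene that has no value here. Over the 25 factors with no opposite-strand overlap of any length, 5 rose and 4 fell, against 23.6% and 25% of all tested genes. Rises thus outnumbered falls by less than over all 40, where 10 rose and 5 fell.

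Beyond the 40, 192 further genes of the pathway were listed and 190 of them tested. Of the 190, 49 rose, 21 fell and 120 did not pass, with a median log2 fold change of 0.04. That is 25.8% rising and 11.1% falling, against 23.6% and 25% of all tested genes. By list the share that rose ran from 0% to 56% and the share that fell from 0% to 20.8%. The other subunits of RNA polymerase I and its promoter factor SL1 gave 1 rise and 3 falls among 15, with a median of -0.14. POLR2H (0.25), a subunit shared by all 3 nuclear polymerases, rose. CD3EAP (-0.41) and TWISTNB (-0.38), polymerase I subunits now named POLR1G and POLR1F, and POLR2L (-0.36), another shared subunit, fell. None of the 12 snoRNP partners and assembly factors passed in limma, and their median was -0.11, with values from -0.18 to 0.18. At an unadjusted p below 0.05 there was 1 among them, and edgeR and DESeq2 also called 0.

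Small subunit factors outside the 40 gave 9 rises and 3 falls among 43, with a median of 0.01. These were 20.9% and 6.98%, against 23.6% and 25% of all tested genes. LTV1 (0.48), which leaves the small subunit late in its export, IMP3 (0.31), of the U3 snoRNP, and the processome GTPase BMS1 (0.27) rose most. WBSCR22 (-0.43), the methyltransferase now called BUD23, the processome protein WDR3 (-0.23) and the helicase DDX10 (-0.19) fell. Large subunit factors gave 11 rises (22%) and 6 falls (12%) among 50, with a median of 0.06. The share that rose was thus near the background in both lists. The GTPases LSG1 (0.39) and EFL1 (0.39) of final subunit maturation rose, as did RSL24D1 (0.46). SBDS, the cofactor with which EFL1 is known to free the subunit of EIF6, fell to 1453 ± 122 normalised counts at 72 h, against 2290.1 ± 127 at 30 h (log2 -0.66, limma adjusted p = 6.94e-05). EBNA1BP2 (-0.49) and RRP15 (-0.44) also fell.

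In RNA processing and the exosome, 6 of 24 rose (25%, against 23.6% of all tested genes) and 5 fell (20.8%, against 25%), with a median of -0.05. RPP25 (1.33) and RPP38 (0.45), subunits of RNase P and RNase MRP, and the exosome nuclease DIS3 (0.41) rose. RPP25 was scarce, with 52.4 ± 7.41 normalised counts at 72 h and 20.3 ± 2.80 at 30 h. The exosome core subunits EXOSC9 (-0.78) and EXOSC8 (-0.68) fell, as did POP5 (-0.38), another subunit of RNase P and RNase MRP. Among 21 snoRNA host genes, 8 rose (38.1%, against 23.6% of all tested genes) and 2 fell (9.52%, against 25%), with a median of 0.20. EPB41L4A-AS1 (0.78), SNHG12 (0.62) and EIF4A1 (0.56) rose most, and SNHG8 (-0.36) and C6orf48 (-0.34), now called SNHG32, fell. EIF4A1 had only 60 to 132 reads, and it shares exons with SENP3-EIF4A1. Other same-strand genes share exon length of LTV1 (27.7%), C6orf48 (23.2%) and SNHG8 (14.2%). At least 10% of the exon length lies opposite another gene's exons in CD3EAP, POLR2L, IMP3, WBSCR22, WDR3, SBDS, EBNA1BP2, RPP38, DIS3 and EPB41L4A-AS1.

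Of 25 genes of nucleolar stress signalling and growth control, 14 rose (56%, against 23.6% of all tested genes) and 2 fell (8%, against 25%), with a median of 0.18. MXD1 (0.81), which competes with MYC for MAX, the p53 ligase MDM2 (0.53) and TSC1 (0.39), an inhibitor of mTOR signalling, rose most. EIF4EBP1 (-0.46), a brake on translation, had the larger fall. MDM2 averaged 2707 ± 249.8 normalised counts at 72 h and 1868 ± 50.6 at 30 h (limma adjusted p = 0.000221). CDKN1A, the p21 cell cycle inhibitor and a p53 target, rose to 7206 ± 1367 at 72 h, against 4295 ± 114 at 30 h (log2 0.73, adjusted p = 0.00346). MYC had 663, 740.3 and 748 normalised counts at 72 h, against 661, 615 and 471 at 30 h. Its 3 values of 72 h stood above those of 30 h, but the test missed the threshold (log2 0.31, adjusted p = 0.0621). HRAS averaged 27310.1 ± 2784 at 72 h and 37555 ± 416 at 30 h and fell by 0.46 on the log2 scale (adjusted p = 0.000702). Its mean level was 3999 TPM at 72 h and 5912 TPM at 30 h. NPM1, the highest of the biogenesis factors, had 598 TPM at 72 h and 611 TPM at 30 h. How many HRAS reads came from the RAS construct was not tested, so the fall cannot be assigned to the cells' own HRAS gene.

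**Figure D5:**
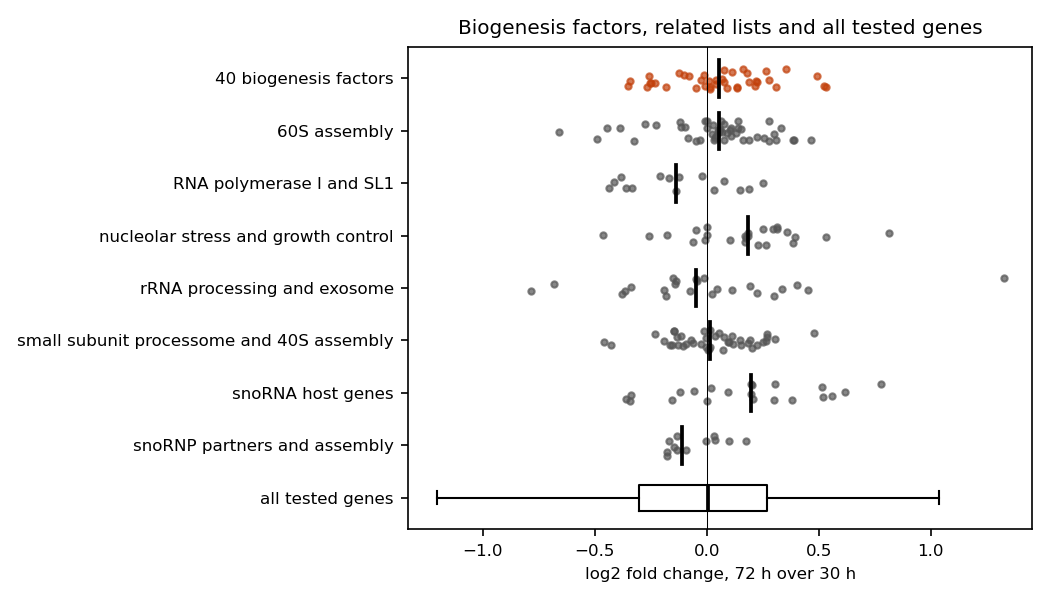
Log2 fold change, 72 h over 30 h, of the 40 factors and of the 7 related lists, 1 point per tested gene with a bar at the median; the box at the bottom gives the quartiles of all tested genes, with whiskers at the 5th and 95th percentiles. The 40 factors lie between -0.35 and 0.53, while the whiskers reach -1.21 and 1.04.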

How the data were processed

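Polyadenylated RNA of 6 libraries was compared, 3 at 72 h and 3 at 30 h of 4OHT. Titles of the samples speak of 3 and 1.5 days, whereas the labels' protocols and column names say 72 h and 30 h, which are used here. Trimmomatic 0.35 for trimming, STAR 2.5.1b with GRCh38 (hg38) for alignment and DESeq2 1.18.1 for the comparison are named per the submitters' processing notes. Read counter, annotation and strand setting: not given in the sources used here. Deposited by the authors was 1 signal value per gene and library, a read count divided by a size factor (0.948 to 1.15). In each library 100% of values were whole multiples of the smallest, within 0.01, which gave back the reads. Per the file headers, the authors' table also holds a log2 fold change, its standard error and Wald statistic (scores) and p-values, used only as an alternative.

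A gene was tested if 3 or more libraries had 10 or more normalised counts. Values on the log2(value + 1) scale went into limma 3.58.1 (trend, robust) in R 4.3.3, with Benjamini-Hochberg adjustment over 13315 genes and a threshold of 0.05. Fold changes understate change in low genes. DESeq2 1.42.0 and edgeR 4.0.16 on the recovered reads were alternatives, and the steps were tested on simulated data. TPM values use recovered reads and exon lengths of GENCODE 29. Coordinates are from the deposited table. Replicates differed by more than sampling noise (chi-square per degree of freedom 3.13 to 14.9 within groups, 100.02 to 146 between). The 40 members, the 7 related lists, the motifs and the alternatives were chosen with earlier results of these data known. The rule gave values by library for the 6 largest rises and falls, the highest level of each role and the paralogue pairs, and up to 3 called genes each way per related list with a mean of at least 50. Values by library of other members, snoRNA hosts and pseudogene copies were chosen after values were seen. Of the 192 related genes, 9 were matched by identifier under older symbols. The values of one of the related genes are not reported here.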

Additional observations from a re-analysis of the deposited data

How the results depend on the processing

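The 10 rises and 5 falls were recounted under other scalings, filters, tests and left-out libraries. Requiring at least 1.5-fold left 0 rises and 0 falls among the 40 factors, 1360 and 1724 among all tested genes and 4 and 3 among the 190 related genes. Falls numbered 3 by DESeq2 on whole reads, 3 in the authors' deposited table and 3 by limma without its trend and robust options, each of them among the main 5, with 9, 8 and 7 rises. Leaving out 1 library at a time gave 6 to 14 rises and 2 to 7 falls. Among the 13315 tested genes it gave 2529 to 3174 rises and 2689 to 3295 falls. Leaving out factors with opposite-strand overlap gave 5 rises and 4 falls, with fewer genes tested. TMM, library totals, both other pseudocounts, a filter of 50 and edgeR kept all 15 calls. The median over the 40 ran from -0.0023 (without 72 h replicate B) to 0.0999 (quantile normalisation). Quantile normalisation moved the median of all tested genes to 0.0295 and of the related genes to 0.0732.

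The main fit did not pair libraries by replicate letter. Deviations of same-letter libraries correlated at 0.00696 for A, 0.172 for B and 0.185 for C. The B and C libraries thus shared a little of their deviation, and the A libraries almost none. These correlations are over all tested genes, whereas among the 40 factors the letter C library was the lowest of its group for 34 at both times. With the letter as a replicate block, 12 factors rose and 8 fell, the main 15 among them. Of all 13315 tested genes 3271 rose and 3452 fell in that fit, so the share called in either direction was close to that of the 40.

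Among the 40, signs turned only in 10 factors that did not pass. Under quantile normalisation the log2 fold change was 0.0264 for RRP12, 0.0152 for UTP15 and 0.006 for UTP4. Without both letter C libraries it was -0.0022 for BYSL, -0.0513 for GNL3L, -0.0249 for NIP7, -0.0218 for SDAD1 and 0.0121 for UTP15. With single libraries left out it ran from -0.0241 to 0.0828 for BYSL, -0.0185 to 0.0763 for GNL3L, -0.0638 to 0.0676 for NIP7, -0.0249 to 0.047 for SDAD1, -0.0766 to 0.051 for RRP12 and -0.0745 to 0.0519 for UTP4. The range was -0.1646 to 0.0286 for NOC3L, -0.0032 to 0.0915 for POLR1A, -0.0043 to 0.1732 for RRP9 and -0.0424 to 0.0039 for UTP15. The cause was not tested. Each factor had at least 319 reads in each library, and 3 libraries a time limit the precision.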

Other observations

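Of the 26 entries for small RNAs annotated within the 8 host factors, 15 had any read, and none had more than 7 reads in a library. The most were in an entry of SNORD19 within GNL3. It had 1, 5 and 7 reads in the 72 h libraries A, B and C, against 0, 1 and 3 in the 30 h libraries A, B and C. At so few reads no level of the snoRNAs themselves can be given. POLR2F and PWP2 were the related genes with too few reads to test. PWP2, a processome protein, had 2, 5 and 1 reads at 72 h, against 1, 1 and 3 at 30 h. POLR2F, a subunit shared by all nuclear polymerases, had 0, 0 and 1 reads at 72 h, against 2, 0 and 0 at 30 h. Whether reads of POLR2F or PWP2 were lost in counting was not tested, so these values do not show that either gene is silent.

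Of the 40 factors 10 had named pseudogene copies in the table. NPM1 had 45, of which 24 had a read, and together they held 1.48% as many reads as NPM1. For SDAD1 the share was 3.12% and for NOC2L 0.859%. Among the copies of RRN3, RRN3P1 averaged 29.1 ± 3.91 normalised counts at 72 h and 17.4 ± 8.60 at 30 h (log2 0.81, limma adjusted p = 0.0780), and RRN3P3 averaged 35.5 ± 7.80 at 72 h and 40.3 ± 14.5 at 30 h (log2 -0.14, adjusted p = 0.692). Neither passed.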
